A study of Homo sapiens with 3 samples.

Results

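The Notch signalling genes described here are 10 of the 32738 gene rows of a droplet single-cell RNA data set from Kelly cells. They were taken by name: the receptors NOTCH1 (ENSG00000148400), NOTCH2 (ENSG00000134250) and NOTCH3 (ENSG00000074181), the ligands DLL1 (ENSG00000198719), DLL3 (ENSG00000090932), JAG1 (ENSG00000101384), JAG2 (ENSG00000184916) and DLK1 (ENSG00000185559), and the target genes HES1 (ENSG00000114315) and HEY1 (ENSG00000164683). Kelly is an established human neuroblastoma line that carries amplified MYCN and an activating mutation of the receptor tyrosine kinase ALK, and TAE684 is an inhibitor of ALK. Sensitive cells were in the vehicle DMSO, intermediate resistant cells were grown in TAE684 at 500 nM, and fully resistant cells were grown in it at 1 µM. Each state was 1 library of 1 cell line, so n = 1, no test was run, and response, dose and culture cannot be told apart. In each library the RNA of single cells was counted as UMIs, which are distinct tagged molecules read near the 3′ end of the transcript.

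Notch receptors are cleaved when a ligand on a neighbouring cell pulls on them, and the freed intracellular part joins the DNA-binding protein RBPJ to switch on HES and HEY genes. HES1 is a repressor that holds down proneural genes such as NEUROG1, NEUROG2 and NEUROD1, so that in the developing nervous system cells with active Notch are held from becoming neurons while neighbours that carry ligand go on. DLL1, JAG1 and JAG2 activate receptors on the next cell, DLL3 acts mainly inside its own cell and does not activate receptors in that way, and DLK1 is a delta-like protein without the receptor-binding part of the classical ligands that is widely made by sympathoadrenal cells.

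There were 5415 sensitive, 6288 intermediate resistant and 6331 fully resistant cells, with 95119772 to 106163582 UMIs in their cells and a median of 15660.5 to 16014 UMIs per cell. All 8 sympathoadrenal markers (among them PHOX2A, HAND2, GATA3, ISL1, MYCN, DBH and TH) reached 5 CPM in each library, where CPM (counts per 1e6) is a gene's UMIs divided by all UMIs of the library's cells and scaled to 1e6. The immune, endothelial and epithelial lists, with 3 or 4 markers each, summed to at most 1.49 CPM in any library, and CD3E and CDH1 were at 0. The 4 Schwann cell markers summed to 2.76 CPM in sensitive, 1.88 in intermediate resistant and 85.9 in fully resistant cells, with SOX10, a defining marker, at 0, 0 and 0.0188 CPM. Of the cell barcodes, the fully resistant library shared 62 with the sensitive and 56 with the intermediate resistant library, the intermediate resistant library shared 38 with the sensitive library, and 0 were in all 3. The product of the cell numbers over the number of possible barcodes was 46.5, 54.0 and 46.2 for these pairs in the same order. All intervals are 95% intervals and cover counting error only, and cells of 1 library are not replicates.

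Promoter sequences are shown for the receptor with the greatest ratio between libraries, the target HES1 and the receptor NOTCH3, both low in the intermediate resistant library, and the ligand JAG2. RefSeq's table on GRCh38.p14 matched 6 of the 10 members (NOTCH1, NOTCH2, NOTCH3, JAG1, JAG2 and HES1), each with 250 bases before and 50 after the gene's start. Capitals mark matches to TGGGAA, the core that RBPJ is known to bind, on either strand. The windows are HES1 at chr3:194135898-194136197 (+ strand), NOTCH1 at chr9:136545999-136546298 (- strand), NOTCH3 at chr19:15200946-15201245 (- strand) and JAG2 at chr14:105168727-105169026 (- strand), each written 5′ to 3′ on the gene's strand.
HES1: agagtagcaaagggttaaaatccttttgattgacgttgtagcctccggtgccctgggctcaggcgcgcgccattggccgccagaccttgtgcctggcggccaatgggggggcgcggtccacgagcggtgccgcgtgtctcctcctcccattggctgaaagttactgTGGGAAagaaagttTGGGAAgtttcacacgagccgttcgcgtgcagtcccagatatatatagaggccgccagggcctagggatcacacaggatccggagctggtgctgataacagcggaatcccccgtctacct
NOTCH1: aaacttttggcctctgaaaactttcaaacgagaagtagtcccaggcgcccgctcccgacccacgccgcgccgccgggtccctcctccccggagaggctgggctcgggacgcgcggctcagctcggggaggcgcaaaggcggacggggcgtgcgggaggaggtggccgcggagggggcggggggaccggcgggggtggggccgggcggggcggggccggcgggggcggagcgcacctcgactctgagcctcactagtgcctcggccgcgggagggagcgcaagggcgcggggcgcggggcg
NOTCH3: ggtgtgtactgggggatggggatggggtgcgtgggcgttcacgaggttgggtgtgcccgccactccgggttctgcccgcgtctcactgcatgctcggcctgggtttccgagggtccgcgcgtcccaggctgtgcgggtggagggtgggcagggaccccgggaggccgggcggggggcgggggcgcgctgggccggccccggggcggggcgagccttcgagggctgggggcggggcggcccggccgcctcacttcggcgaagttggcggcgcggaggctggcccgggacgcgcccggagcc
JAG2: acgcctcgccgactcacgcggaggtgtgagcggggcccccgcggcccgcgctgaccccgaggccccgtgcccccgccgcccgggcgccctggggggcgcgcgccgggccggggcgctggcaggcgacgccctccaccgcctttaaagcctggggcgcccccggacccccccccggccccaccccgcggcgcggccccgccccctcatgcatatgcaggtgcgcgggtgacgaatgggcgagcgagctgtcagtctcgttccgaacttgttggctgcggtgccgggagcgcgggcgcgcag
The HES1 window held 2 RBPJ cores on the gene's strand, at -84 to -79 and -70 to -65 from the start, and the other 5 windows held 0. Of all 35116 promoter windows of this length, 24.0% held at least 1 RBPJ core and 3.80% held 2 or more. The N-box CACNAG, which HES proteins are known to bind, had 4 matches in the HES1 window, 2 that overlap each other in NOTCH1, and 1 each in NOTCH2 and NOTCH3, and 38.0% of all windows held at least 1. None of the N-box matches overlapped an RBPJ core. The E-box CAGCTG of proneural factors had 0 matches in the 6 windows and was held by 17.9% of all windows. A match is a description of the letters and was not measured as binding here.

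Among the receptors, NOTCH1 was nearly confined to the fully resistant library, and NOTCH3 was lowest in the intermediate resistant library. NOTCH1 had 1 UMI in sensitive, 4 in intermediate resistant and 506 in fully resistant cells, which are 0.0105, 0.0390 and 4.77 CPM. The fully resistant level lay above both others by far more than counting error. With 1 UMI on the sensitive side, the ratio of fully resistant over sensitive was 453 with a counting interval of 81.003 to 17942, and that of fully resistant over intermediate resistant was 122 (47.4 to 450). After each cell was thinned to 5000 UMIs, NOTCH1 was seen in 0 of 5415 sensitive cells, which allows a share of cells with a UMI of up to 0.0554% by a limit of 3 counts (0.0681% by the exact binomial interval), in 2 of 6288 intermediate resistant cells (0.0318%) and in 146 of 6331 fully resistant cells (2.31%, interval 1.95 to 2.71). Without thinning the fully resistant share was 7.09%, at most 5 UMIs in a cell. Free RNA, read from barcodes ranked far below the cells by UMIs, amounted to 0.00895 CPM of NOTCH1 in the fully resistant library. The 20 nearest genes on chromosome 9 that were high enough to be compared had a median log2 ratio of 0.42 for fully resistant over sensitive, against 8.82 for NOTCH1.

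NOTCH3 was at 4.05 CPM in sensitive (385 UMIs), 1.04 in intermediate resistant (107 UMIs) and 3.22 in fully resistant cells (342 UMIs). It was 3.88-fold lower in intermediate resistant than in sensitive cells (3.12 to 4.85) and 3.08-fold higher in fully resistant than in intermediate resistant cells (2.48 to 3.87). Fully resistant and sensitive cells differed little, with NOTCH3 1.26-fold lower in the fully resistant library (1.08 to 1.46). NOTCH2 had 24 UMIs in sensitive, 4 in intermediate resistant and 32 in fully resistant cells. Its fully resistant and sensitive levels, 0.301 and 0.252 CPM, could not be told apart by counting error (ratio 1.19, 0.682 to 2.12), and the intermediate resistant level of 0.0390 CPM was 6.46-fold lower than the sensitive one (2.22 to 25.6). NOTCH2 shares nearly identical sequence with the partial copy NOTCH2NL, which had 2, 2 and 22 UMIs in the 3 libraries from low to high dose. The split of reads between them was not tested.

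Among the ligands, DLK1 was higher in both resistant libraries, JAG2 was lower in both, and DLL3 was nearly level. DLK1 was at 1005 CPM in sensitive, 2374 in intermediate resistant and 1821 in fully resistant cells, from 95596, 243244 and 193367 UMIs. It was 2.36-fold higher in intermediate resistant than in sensitive cells (2.34 to 2.38), 1.81-fold higher in fully resistant than in sensitive cells (1.80 to 1.83), and 1.30-fold lower in fully resistant than in intermediate resistant cells. The 20 nearest compared genes on chromosome 14 had median log2 ratios of 0.11 for fully resistant over sensitive and -0.13 for intermediate resistant over sensitive, against 0.86 and 1.24 for DLK1. MEG3, a noncoding RNA made from the same imprinted region as DLK1 and added here for that reason after its values were seen, was at 1.22, 8.28 and 13.9 CPM in the sensitive, intermediate resistant and fully resistant libraries.

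JAG2 had 386 UMIs in sensitive, 120 in intermediate resistant and 170 in fully resistant cells, or 4.06, 1.17 and 1.60 CPM. It was 3.46-fold lower in intermediate resistant than in sensitive cells (2.82 to 4.29) and 2.53-fold lower in fully resistant than in sensitive cells (2.11 to 3.05). The 2 resistant libraries lay closer to each other, with JAG2 1.37-fold higher in the fully resistant one (1.08 to 1.74). DLL3 was at 47.0, 38.7 and 47.2 CPM from low to high dose, and the ratio of fully resistant over sensitive was 1.00 (0.964 to 1.05). DLL1 stayed between 0.839 and 1.28 CPM, with an interval of its ratio to sensitive cells that included 1 in both resistant libraries (0.597 to 1.09 intermediate resistant, 0.943 to 1.61 fully resistant). Between the resistant libraries, DLL1 was 1.53-fold higher in the fully resistant one (1.16 to 2.02). JAG1 had 22, 15 and 28 UMIs from low to high dose, too few to separate any 2 libraries.

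Of the targets, HES1 was low in the intermediate resistant library alone, while HEY1 was lower in both resistant libraries. HES1 had 317 UMIs (3.33 CPM) in sensitive, 28 (0.273 CPM) in intermediate resistant and 272 (2.56 CPM) in fully resistant cells. It was 12.2-fold lower in intermediate resistant than in sensitive cells (8.28 to 18.6) and 9.37-fold higher in fully resistant than in intermediate resistant cells (6.34 to 14.4). Fully resistant cells had 1.30-fold less HES1 than sensitive cells (1.10 to 1.54). In thinned cells HES1 was seen in 1.88% of the sensitive cells, in 0.191% of the intermediate resistant ones and in 1.20% of the fully resistant ones (unthinned 4.89%, 0.445% and 3.41%). HEY1, a related repressor, was at 15.1, 9.08 and 7.80 CPM from low to high dose. It was 1.67-fold lower in intermediate resistant than in sensitive cells (1.54 to 1.81) and 1.94-fold lower in fully resistant than in sensitive cells (1.78 to 2.12). HES1, NOTCH3 and JAG2 therefore had the same order of libraries, lowest in the intermediate resistant one, which HEY1 did not share. NOTCH2, DLL1, DLL3 and JAG1 were also lowest there by CPM. Counting error did not set DLL1 and JAG1 apart from their sensitive levels. From low to high dose the 8 mesenchymal-state markers summed to 78.4, 10.6 and 28.2 CPM, with VIM at 62.6, 3.81 and 4.201 CPM. Others of that list were highest in the fully resistant library: SNAI2 was at 0.536, 0.205 and 11.1 CPM, COL1A1 at 2.04, 3.05 and 5.36 CPM, and FN1 at 5.71, 2.93 and 7.14 CPM. COL1A2 was at 0 in the sensitive library, COL1A2 and PRRX1 at 0 in the intermediate resistant library, and CD44 and PRRX1 at 0 in the fully resistant library, and the part of these markers in the Notch differences was not tested.

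**Figure D1:**
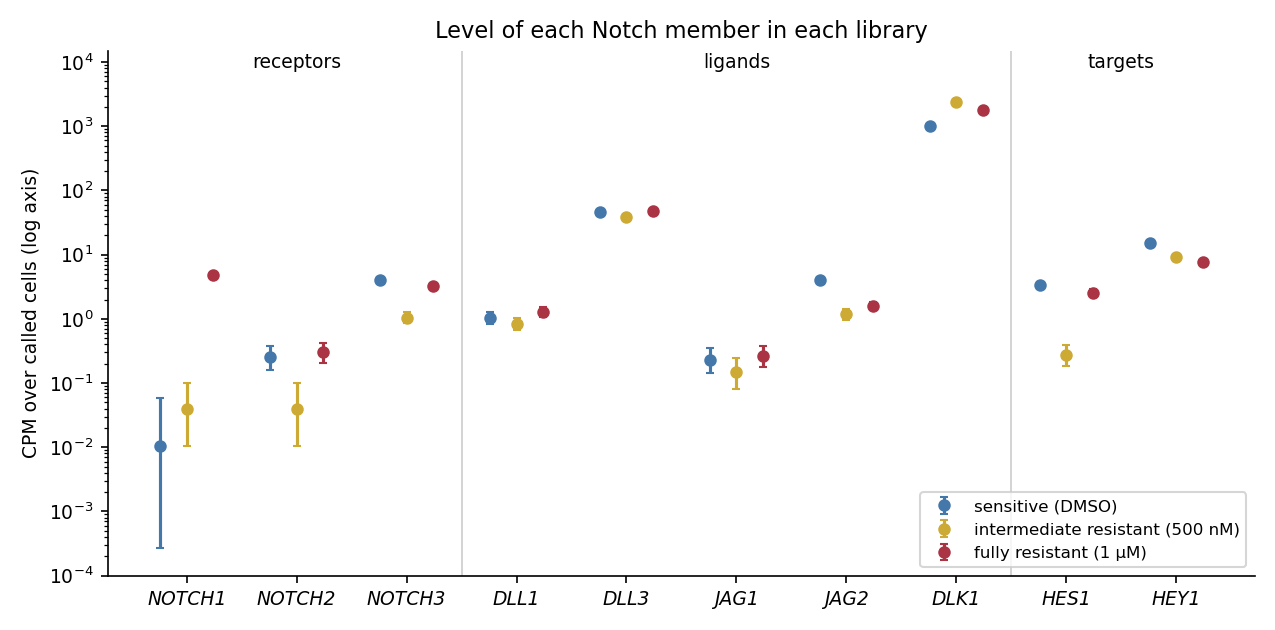
CPM of the 10 Notch genes over the called cells of each library, on a log axis, with exact Poisson 95% intervals (bars) and the libraries from low to high dose. NOTCH1 stands at 4.77 CPM in the fully resistant library and under 0.1 CPM in the other libraries, and HES1 dips to 0.273 CPM in the intermediate resistant library; levels of different genes are not divided by transcript length.

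Against all genes, the shift of the 10 genes was measured at a size limit of 2-fold. Where the higher of the 2 libraries had to reach 5 CPM, only DLL3, DLK1 and HEY1 could be counted. For fully resistant over sensitive, 0 of these 3 were at least 2-fold higher and 0 lower, where 6.73% of the 9800 genes compared were higher and 7.33% lower. For intermediate resistant over sensitive, 1 of 3 (DLK1) was higher and 0 lower, beside 2.38% higher and 4.81% lower of 9529 genes. For fully resistant over intermediate resistant, the counts were 0 and 0, beside 5.71% higher and 3.91% lower of 9614 genes. The median log2 ratios of the 3 genes in these comparisons were 0.01, -0.28 and -0.22, and those of all compared genes were 0.08, -0.08 and 0.15.

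A limit of 1 CPM, chosen after the levels were seen, let in 8, 7 and 8 of the 10 genes. For fully resistant over sensitive, 1 (NOTCH1) was higher and 1 (JAG2) lower, beside 9.15% higher and 9.54% lower of all 12988 genes compared. For intermediate resistant over sensitive, 1 (DLK1) was higher and 3 (NOTCH3, JAG2 and HES1) lower, beside 4.43% higher and 6.34% lower of 12751 genes. For fully resistant over intermediate resistant, 3 (NOTCH1, NOTCH3 and HES1) were higher and 0 lower, beside 7.68% higher and 5.95% lower of 12880 genes. A gene that passes the limit only through the library where it is high had to differ, so these counts describe the genes and are no support for a shift of the group.

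**Figure D2:**
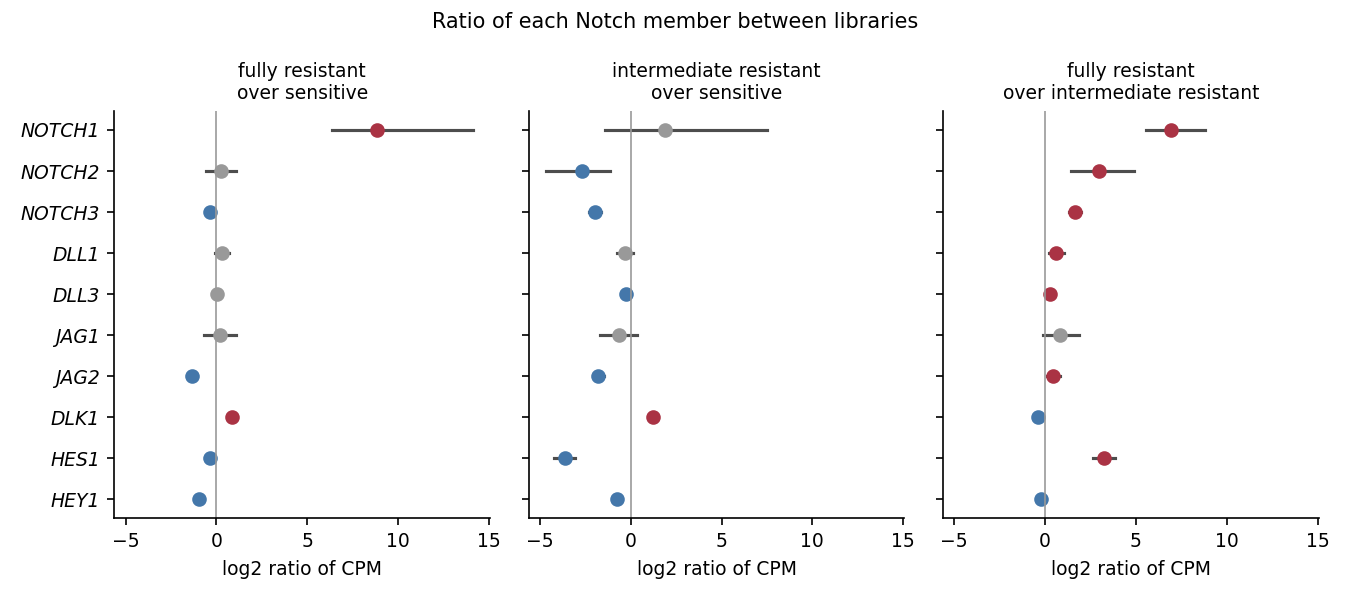
log2 ratio of CPM of each Notch gene in the 3 comparisons (columns), with exact conditional Poisson 95% intervals (lines) and 0 as a vertical line; red points are higher, blue points lower, and the intervals of grey points include 0. NOTCH1 has the greatest ratio in both comparisons of the fully resistant library (8.82 and 6.93), and HES1 the lowest in intermediate resistant over sensitive cells (-3.61).

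The rest of the pathway was read from 82 further genes listed by role. For fully resistant over sensitive, 62 were at 5 CPM or more, of which 10 were at least 2-fold higher and 2 lower (median log2 ratio 0.18), beside 6.73% and 7.33% of all genes. For intermediate resistant over sensitive the counts were 1 higher and 3 lower of 56 (median -0.11), beside 2.38% and 4.81% of all genes, and for fully resistant over intermediate resistant 11 higher and 3 lower of 62 (median 0.24), beside 5.71% and 3.91%. Against sensitive cells, NEUROG1, NEUROG2, NEUROD1, NEUROD4, DLK2 and APH1B passed the limit only through the fully resistant library. Genes that pass in this way had to be higher there. These counts therefore describe the genes and are no support for a shift of the pathway. The receptor-modifying fringe enzymes included MFNG, which adds sugar to Notch and was lowest in the intermediate resistant library, as HES1 was: 12.5 CPM in sensitive, 1.69 in intermediate resistant and 12.9 in fully resistant cells. LFNG and RFNG were within 1.30-fold of the sensitive level in both resistant libraries. RBPJ was at 70.6, 95.01 and 91.0 CPM, and none of the 7 compared genes of its nuclear complex, of the 8 on receptor turnover and of the 6 on ligand uptake was 2-fold different between fully resistant and sensitive cells. In the cleavage step APH1B, a gamma-secretase subunit, was 2.39-fold higher in fully resistant than in sensitive cells (5.10 against 2.13 CPM). Of the atypical ligands DLK2, the closest relative of DLK1, was at 8.62 CPM in fully resistant and 1.44 CPM in sensitive cells, and CNTN1 was 5.29-fold lower (5.23 against 27.7 CPM).

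Among other HES genes and targets, HES6, which opposes HES1 in neurogenesis, was at 312.6 CPM in fully resistant and 44.5 CPM in sensitive cells (7.02-fold), with 48.8 CPM in intermediate resistant cells. CDKN1A, the cell cycle inhibitor p21, was also lowest in the intermediate resistant library, at 14.1, 0.469 and 36.5 CPM from low to high dose. NRARP, a feedback target of Notch, was at 6.77, 6.38 and 8.65 CPM. HEYL was at 2.45, 1.84 and 1.38 CPM, and HES5 had 3, 0 and 0 UMIs. Of the 7 genes that HES1 is known to repress, 5 could be counted for fully resistant over sensitive and 4 were higher, where HES1 was 1.30-fold lower and 6.73% of all genes were higher. For intermediate resistant over sensitive, where HES1 was 12.2-fold lower, 0 of 2 were higher (2.38% of all genes). For fully resistant over intermediate resistant, where HES1 was 9.37-fold higher, 4 of 5 were higher (5.71% of all genes). NEUROG1, NEUROG2 and NEUROD4 reached 5 CPM only in the fully resistant library. NEUROD1, at 4.50 CPM in sensitive cells, also passed the limit against them only through that library. Genes that pass in this way had to be higher there, so these counts describe the genes, and a link to HES1 was not tested. NEUROG1 had 1632 UMIs in fully resistant and 0 in sensitive cells, a ratio of 487 with a floor of 3 UMIs per library (lower 95% limit 396). NEUROG2 had 706 UMIs in fully resistant and 2 in sensitive cells (ratio 316, 87.2 to 2617), and NEUROD1 was 24.6-fold higher.

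Over single cells, DLK1 was spread in a way that the sums of the libraries do not show. Per 10000 UMIs of the cell, the median cell had 8.75 DLK1 UMIs in sensitive, 22.8 in intermediate resistant and 18.6 in fully resistant cells. Cells with 0 DLK1 UMIs made up 4.03% in the sensitive library, 0.111% in the intermediate resistant library and 11.5% in the fully resistant library. Cells under 2 per 10000, called DLK1-low here, were 682 (12.6%, interval 11.7 to 13.5), 25 (0.398%) and 1427 (22.5%, 21.5 to 23.6), and the range is a choice made after the spread was seen, with 557, 27 and 396 cells between 1 and 3 per 10000. The next range, 2 to 4 per 10000, held 10.2% of sensitive cells, so no gap set the DLK1-low cells apart there. It held 3.65% of fully resistant cells. Among cells of at least 5 per 10000, called DLK1-high, the log2 ratio of DLK1 for fully resistant over intermediate resistant was 0.01, against -0.38 over all cells. As DLK1-high cells were chosen by DLK1 itself, the closer DLK1 levels follow in part from that choice. In the same cells NOTCH3 had a log2 ratio of -0.02 for fully resistant over sensitive, against -0.33 over all cells. The variance of thinned DLK1 counts over their mean was 3.15, 3.16 and 5.97 from low to high dose, where genes of like mean had medians of 1.31, 1.96 and 1.58. DLK1 exceeded 97.4%, 84.6% and 96.2% of those genes, which numbered only 39, 13 and 26. DLL3 was at 0.982, 1.01 and 1.04, above 3.66%, 21.4% and 60.3% of genes of like mean, and HES1 exceeded 99.8% of genes of like mean in fully resistant cells (1.39) and 99.9% in sensitive cells (1.44). In the sensitive library 1 cell held 11 of the 317 HES1 UMIs. At 10000 UMIs per cell, which leaves that cell out, the value was 1.12, still above 99.2% of genes of like mean.

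**Figure D3:**
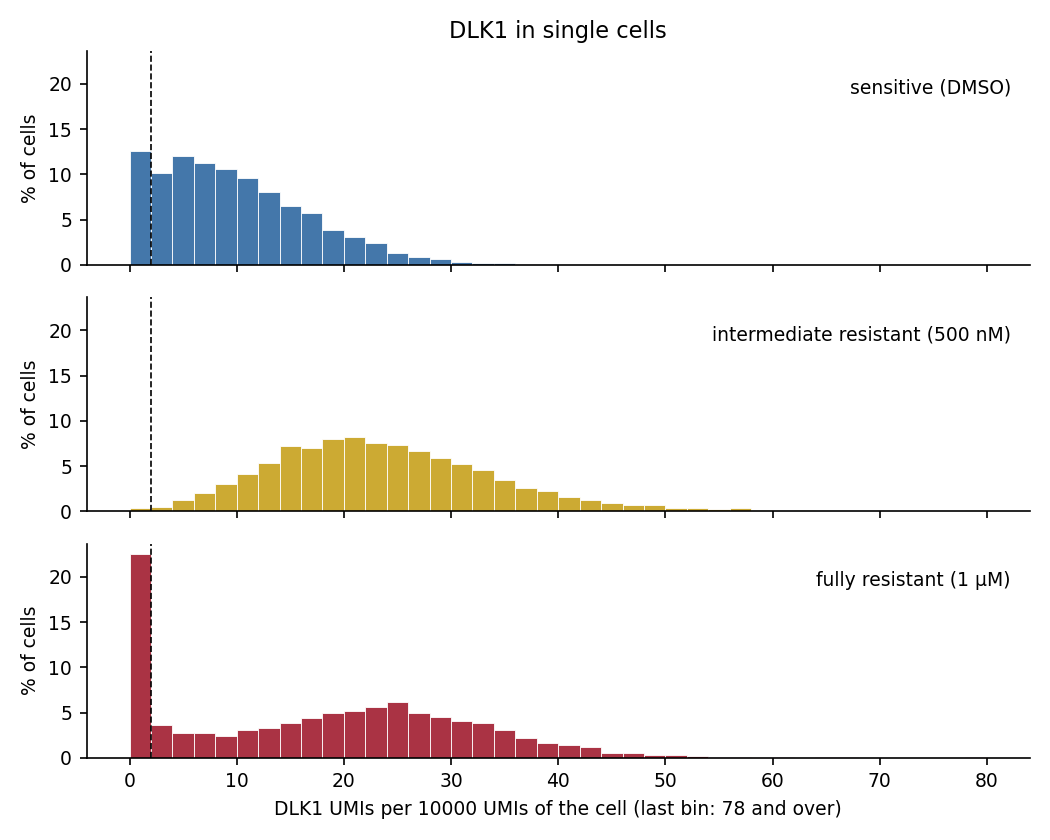
DLK1 UMIs per 10000 UMIs of the cell (horizontal axis, bins of 2) as a share of the cells of each library (vertical axis, %), from low to high dose; the dashed line at 2 bounds the DLK1-low cells. From low to high dose, DLK1-low cells are 12.6%, 0.398% and 22.5% of the cells, and DLK1-high cells have a median of 23.8 in the fully resistant and 22.9 in the intermediate resistant library. DLK1-high cells were chosen by DLK1 itself, so the nearness of these medians follows in part from that choice.

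DLK1-low cells carried more HES1 than DLK1-high cells in both libraries that had enough of them. In the fully resistant library HES1 was at 4.33 CPM in the 1427 DLK1-low cells and 1.82 CPM in the 4585 DLK1-high cells (2.37-fold, 1.81 to 3.09). NOTCH3 there had a ratio of 1.17 whose interval included 1 (0.895 to 1.51), NOTCH1 was 1.75-fold lower in DLK1-low cells (2.97 against 5.20 CPM, 1.35 to 2.30), and DLL3 was 1.20-fold higher. In the sensitive library HES1 was at 9.22 CPM in the 682 DLK1-low cells and 2.46 CPM in the 3851 DLK1-high cells (3.74-fold, 2.87 to 4.85), and without the cell of 11 UMIs the ratio was 3.30 (2.501 to 4.32). NOTCH3 was 3.07-fold higher in those DLK1-low cells (9.63 against 3.13 CPM, 2.39 to 3.92) and HEY1 1.59-fold higher (22.2 against 13.9 CPM), while JAG2 was 1.77-fold lower (2.51 against 4.43 CPM). Of all genes compared, 1.499% were at least 2-fold higher and 1.12% lower in the fully resistant DLK1-low cells (9471 genes), and 0.606% higher and 0.532% lower in the sensitive ones (9403 genes). Median depth was lower in DLK1-low cells, at 14746 against 16495 UMIs in the fully resistant and 13743.5 against 16345 UMIs in the sensitive library. With every cell thinned to 5000 UMIs, the HES1 ratio was 2.52 in the fully resistant (1.55 to 4.08) and 5.29 in the sensitive library (3.42 to 8.15), NOTCH3 in the sensitive library 2.92 (1.81 to 4.61) and NOTCH1 in the fully resistant library 0.463 (0.266 to 0.762). At that depth the intervals of JAG2 in the sensitive library (0.326 to 1.27) and of HEY1 in the fully resistant library (0.986 to 1.75) included 1. The limit that defines DLK1-low cells lets in cells with some DLK1. The 48.9 CPM of DLK1 in the fully resistant DLK1-low cells therefore follows in part from that limit. Free RNA of DLK1 amounted to 3.82 CPM in that library, and the source of the remaining DLK1 was not tested.

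Other genes also set the DLK1-low cells of each library apart from its DLK1-high cells. In the fully resistant library NEUROD1 was 4.96-fold higher in DLK1-low cells (290.5 against 58.6 CPM, median 1.58 and 0 per 10000 UMIs of the cell). HES6 was 1.96-fold and MFNG 3.87-fold higher there (MFNG 30.4 against 7.85 CPM), while in the sensitive library both were lower in DLK1-low cells (MFNG 8.52 against 13.6 CPM). The 8 mesenchymal-state markers summed to 39.1 CPM in DLK1-low and 24.4 CPM in DLK1-high cells of the fully resistant library. In those of the sensitive library they summed to 209.7 and 56.0 CPM, mostly from VIM. Not every marker followed the sums. SNAI2 was lower in DLK1-low than in DLK1-high cells of the fully resistant library, and CD44 was lower in DLK1-low cells of the sensitive library. VIM, a gene of that list, was at 182 CPM in sensitive DLK1-low and 42.4 CPM in sensitive DLK1-high cells (median 0.759 and 0 per 10000), and REST, a repressor of neuronal genes, at 22.9 and 4.02 CPM. Lower in the DLK1-low cells of both libraries were TH, the rate-limiting enzyme of catecholamine synthesis, at 11.9 against 313.6 CPM in fully resistant and 13.4 against 55.1 CPM in sensitive cells, and the growth factor gene IGF2, at 30.1 against 723.7 CPM and 165.1 against 533.8 CPM. MEG3 had 2 UMIs in fully resistant DLK1-low and 1461 in DLK1-high cells (205-fold lower, 56.7 to 1696). In the sensitive library it had 0 in DLK1-low against 107 in DLK1-high cells (5.07-fold lower with a floor of 3 UMIs over the group).

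**Figure D4:**
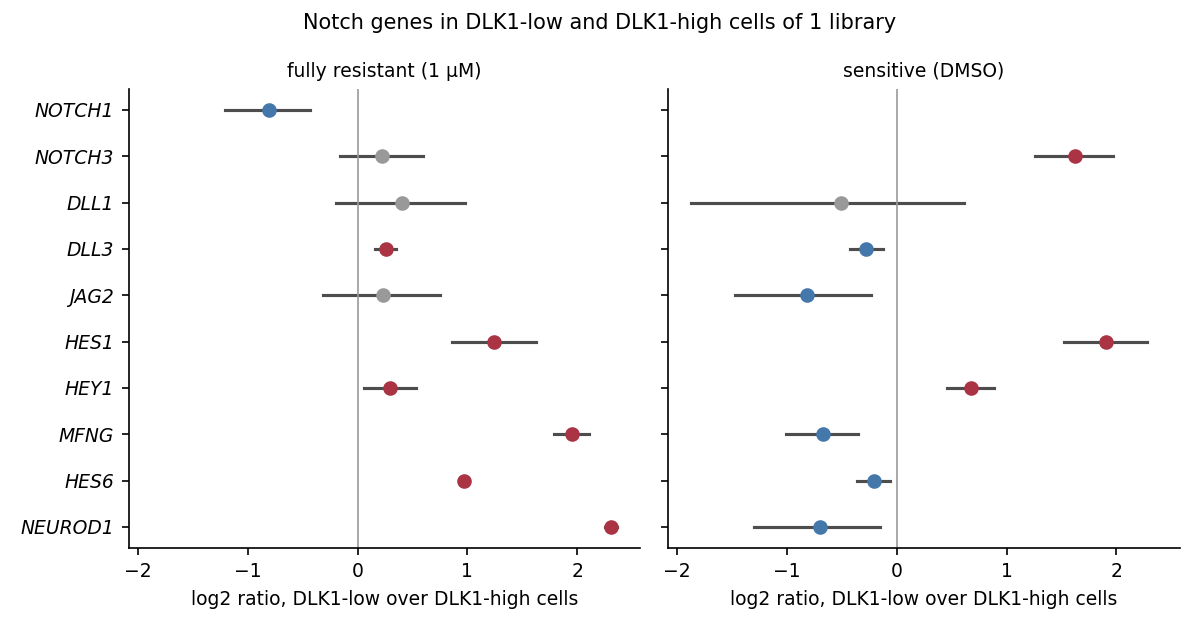
log2 ratio of CPM in DLK1-low over DLK1-high cells of the fully resistant (left) and sensitive (right) library, with exact conditional Poisson 95% intervals (lines); red points are higher, blue points lower, and the intervals of grey points include 0; NOTCH1 is not drawn on the right, where it had 1 UMI in all. HES1 is higher in DLK1-low cells of both libraries, while NEUROD1, MFNG and HES6 lie above 0 on the left and below 0 on the right.

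Within the fully resistant library, HES1 was lower in cells where NEUROD1 was detected. Cells with NEUROD1 detected after thinning (1681 cells) had 1.04 CPM of HES1, against 3.12 CPM in the other 4650 cells (ratio 0.33, 0.22 to 0.49), and 2.02 against 1.01 CPM of DLL1 (2.01-fold, 1.40 to 2.85), at a median of 16188 against 15956.5 UMIs per cell. Among DLK1-low cells 52.2% had NEUROD1 detected, against 18.4% of DLK1-high cells. Splitting the DLK1-low cells by NEUROD1, a split added after the single ones were seen, gave 745 cells with it, at 1.49 CPM of HES1, and 682 without, at 7.74 CPM (5.20-fold lower with NEUROD1, 3.09 to 9.23). NOTCH3 followed HES1, at 1.74 CPM in the DLK1-low cells with NEUROD1 and 5.85 CPM in those without (3.37-fold lower, 2.02 to 5.84), as did VIM at 4.21 and 12.8 CPM. MFNG ran the other way, at 44.8 and 13.1 CPM, and so did DLL1, at 2.15 and 0.893 CPM (2.41-fold higher, 1.09 to 5.84). In DLK1-high cells HES1 was also lower with NEUROD1 (0.7996 against 2.063 CPM), while the interval of the NOTCH3 ratio included 1. The 216 cells with a HES1 UMI had 2.35-fold more HEY1 than the other 6115 cells (17.5 against 7.45 CPM, 1.80 to 3.03) and 2.37-fold less NEUROD1 (47.7 against 112.9 CPM). NOTCH1 had intervals that included 1: in cells with a HES1 UMI its ratio was 1.31 (0.825 to 1.995), and in DLK1-low cells it was 1.20 with NEUROD1 over without (0.718 to 2.04). In the sensitive library the ratio lay on the other side: the 113 cells with NEUROD1 detected had 13 HES1 UMIs, or 6.68 CPM, against 3.26 CPM in the other 5302 cells (2.05-fold, 1.08 to 3.55). It turned round when NEUROD1 was read in cells thinned to 10000 UMIs, with 3 HES1 UMIs in 203 cells (ratio 0.238, 0.0489 to 0.704).

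**Figure D5:**
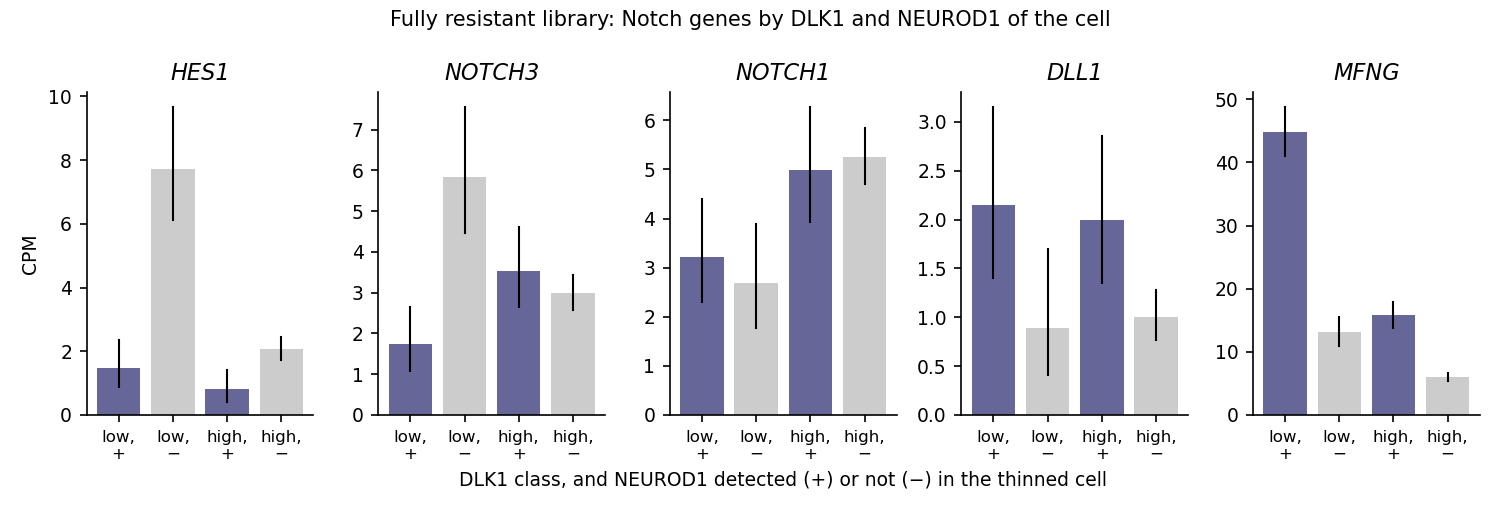
CPM of HES1, NOTCH3, NOTCH1, DLL1 and MFNG (vertical axes from 0) in 4 classes of fully resistant cells, by DLK1 (low or high) and by NEUROD1 detected (+, dark) or not (−, light) in the thinned cell, with exact Poisson 95% intervals (lines). HES1 is highest in DLK1-low cells without NEUROD1 (7.74 CPM) and MFNG in DLK1-low cells with it (44.8 CPM).

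Cells with a VIM UMI after thinning also carried more HES1. In the fully resistant library the 110 cells with VIM had 15 HES1 UMIs (8.59 CPM, against 2.46 CPM in the other 6221 cells, 3.49-fold, 1.93 to 5.87) and 12 NOTCH3 UMIs (2.17-fold, 1.11 to 3.85). In the sensitive library 1134 such cells had 5.80 CPM of HES1, against 2.71 CPM in the other 4281 cells (2.14-fold, 1.68 to 2.71), and NOTCH3 was 1.69-fold higher (1.35 to 2.11). Sensitive cells with a HES1 UMI (265 cells) had 2.003-fold more NOTCH3 than the other 5150 cells (7.68 against 3.84 CPM, 1.41 to 2.78) and 1.37-fold more HEY1. NOTCH1-positive fully resistant cells (449 cells, median 18116 UMIs, against 15908.5 in the other 5882) were little different in the other members: the intervals for HES1 (0.773 to 1.81), HEY1, NOTCH3, DLL1, DLL3 and JAG2 all included 1, and DLK1 was 1.04-fold higher.

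Along the cell cycle, NOTCH1 and DLL1 stood out in the fully resistant library. In the fifth of its cells with most UMIs of 16 G2 and M phase genes, NOTCH1 was 1.92-fold (7.60 against 3.96 CPM, 1.59 to 2.31) and DLL1 2.19-fold higher (2.22 against 1.02 CPM, 1.52 to 3.13) than in the other cells. NOTCH3 was at 2.26 against 3.49 CPM there, and HES1 had a ratio of 0.94 (0.69 to 1.26). These cells were deeper, with a median of 17910.5 against 15848 UMIs, and the part of depth was not tested. The interval of the DLL1 ratio included 1 in the sensitive (0.485 to 1.41) and intermediate resistant library (0.791 to 2.19), although the difference between libraries was not tested. HEY1 was higher in these cells of the sensitive (1.20-fold, 1.06 to 1.35) and intermediate resistant library (1.35-fold, 1.17 to 1.57) and lower in those of the fully resistant library (0.79, 0.66 to 0.95). In the fifth with most UMIs of S phase genes, NOTCH3 was 1.42-fold higher in sensitive cells (1.12 to 1.79), and JAG2 was 1.67-fold higher in intermediate resistant (1.09 to 2.502) and 1.63-fold in fully resistant cells (1.15 to 2.28).

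The genes most like a member over cells were sought for DLK1 and DLL3, which were the members seen in at least 10% of thinned cells of every library. Over 6139 genes, the mean Pearson r of log2(thinned count + 1) across the 3 libraries was highest with DLK1 for IGF2 (0.44), DBH (0.35), TH (0.31), DDC (0.27) and RGS5 (0.25). DBH, TH and DDC are enzymes of catecholamine synthesis. For IGF2 the value was 0.35 in sensitive, 0.35 in intermediate resistant and 0.61 in fully resistant cells. The highest value with DLL3 was 0.03 (CNIH4), and DLK1 and DLL3 had -0.01 with each other. These are descriptions over cells that share a library and a depth.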

How the data were processed

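The authors deposited UMI counts per gene and barcode for 3 droplet libraries, without normalization or a barcode filter, made with a 10x Genomics 3′ v2 kit per the labels. The submitters' processing notes name bcl2fastq, Cell Ranger and the hg19 build without versions. Here a cell was a barcode with at least 5000 UMIs, at least 500 genes and at most 20% mitochondrial UMIs, and doublets were kept and not called. UMIs were summed over cells and scaled to CPM of the library total, not to transcript length. Because each group had 1 library, nothing was tested; exact Poisson, conditional Poisson and Clopper-Pearson 95% intervals cover counting error only. Genes were compared at 5 CPM in the higher library and counted at 2-fold. A library at 0 was set to a floor of 3 UMIs. Depth was 95119772 to 106163582 UMIs per library.

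The 10 members and all gene lists were chosen with earlier results of these data known. Named pathway genes were, per role and comparison, up to 4 with the greatest absolute log2 ratio at 5 CPM or more; MEG3, REST, NRARP, HEYL, HES5, NOTCH2NL and the per-cell splits by DLK1, HES1 and NOTCH1 were chosen after their values were seen. Likeness named the 5 genes with the highest mean r among genes seen in at least 5% of thinned cells. Cells were thinned to 5000 UMIs with a fixed seed. Neighbours were the 10 nearest compared genes on each side in file order, with chromosomes from RefSeq by symbol, found for 97.0% of 9933 compared genes. Alternatives changed the scaling (TMM from edgeR 4.0.16, median of ratios, totals without mitochondrial and ribosomal protein genes), the cell limits, free RNA, thinning and thresholds. Interval and count code was tested on simulated data. Python 3.11.15, numpy 2.4.6, pandas 2.3.3, scipy 1.17.1 and R 4.3.3 were used. Some listed genes are not reported here.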

Additional observations from a re-analysis of the deposited data

How the results depend on the processing

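No paired analysis was possible because each group had 1 library. Each member ratio of at least 2-fold between libraries whose interval excluded 1 kept its direction under the scaling, cell and free RNA settings run; that of NOTCH1 for intermediate resistant over sensitive, from 4 and 1 UMIs, did not (log2 -0.11 to 1.96). The log2 ratio of DLK1 for intermediate resistant over sensitive was 0.92 in DLK1-high cells alone, against 1.24. Those cells were chosen by DLK1 itself, so the lower ratio follows in part from that choice. Scaling moved the median log2 ratio of all genes for fully resistant over intermediate resistant to 0.01 (TMM) or 0.04 (median of ratios, or totals without mitochondrial and ribosomal protein genes), against 0.15 for CPM. Counts that moved by over 1.5 times, or to or from 0, are given here. Members, fully resistant over sensitive: without mitochondrial and ribosomal protein genes 1 higher and 2 lower, TMM 1 lower, median of ratios 1 lower, no minimum CPM 1 higher and 1 lower, minimum of 1 CPM 1 higher and 1 lower, fold of 1.5 1 higher and 1 lower. Intermediate resistant over sensitive: 3 lower without mitochondrial and ribosomal protein genes, 2 higher and 4 lower with no minimum, 3 lower at 1 CPM, 1 lower at 1.5-fold. Fully resistant over intermediate resistant: 2 higher without mitochondrial and ribosomal protein genes, 4 higher with no minimum, 3 higher at 1 CPM. Counts of other pathway genes moved, fully resistant over sensitive, to 6 higher at 20 CPM, 16 higher and 4 lower with no minimum, 4 lower at 1 CPM and 5 lower at 1.5-fold; intermediate resistant over sensitive, to 4 higher without mitochondrial and ribosomal protein genes, 1 lower at 20 CPM, 6 higher and 7 lower with no minimum, 4 higher at 1 CPM, and 3 higher and 6 lower at 1.5-fold; fully resistant over intermediate resistant, to 7 higher at 20 CPM and 17 higher with no minimum. DLK1-low shares at limits of 1 and 3 per 10000 were 7.15% and 17.4% in sensitive, 0.254% and 0.684% in intermediate resistant, and 18.4% and 24.6% in fully resistant cells, and among cells of at least 10000 UMIs 21.5% in fully resistant and 11.3% in sensitive cells. The log2 ratio of HES1 in sensitive cells with NEUROD1 detected turned to -2.07 when cells were thinned to 10000 UMIs, against 1.03 at 5000. Among the log2 ratios of members between subsets of cells, 130 stayed the same, 19 moved and 1 reversed at 10000 UMIs. The causes of these shifts were not tested.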
